A study of Mus musculus with 12 samples.

Results

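The serum amyloid A genes described here are Saa1, Saa2 and Saa3, which are 3 of the 17734 genes in a table of mouse rectal expression. They were selected by symbol, and partly because Saa3 is among the largest rises in colitis, so the difference between colitis mice and normal mice is given for them as a description without a test. The 12 C57BL/6 male mice, aged 8 to 10 weeks, fall into 4 groups of 3: normal mice, which drank water for 7 days, normal mice receiving BBR, colitis mice, which drank 2.5% dextran sulfate sodium (DSS) for 7 days, and colitis mice receiving BBR. BBR is berberine, a plant alkaloid, which was gavaged daily at 100 mg/kg. The study's methods give 7 days of it and the labels 6. The labels call the tissue colorectum and the methods call it rectum, and it holds epithelium, stroma and immune cells together. DSS is a polymer that injures the bowel lining, so the model is one of chemical injury. Values are FPKM, a level scaled for transcript length and sequencing depth. In such bulk samples, fewer cells of a type and less RNA per cell cannot be told apart.

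Serum amyloid A proteins are small apolipoproteins of the acute phase response, the change in plasma proteins that follows injury and infection. Saa1 and Saa2 are known as the acute phase forms that the liver secretes into high density lipoprotein, and Saa3 is known as a form made outside the liver, by macrophages, adipocytes and epithelium. In the bowel, epithelial cells make serum amyloid A in contact with microbes, and cytokines of the interleukin and tumour necrosis factor families, acting through STAT, NF-kappaB and C/EBP factors, induce these genes. The secreted proteins bind formyl peptide and Toll-like receptors and carry retinol.

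The 3 genes lie in a cluster on chromosome 7 together with Saa4, the constitutive form. Saa1 and Saa2 are read outward from start sites that are 8853 bases apart on opposite strands, and their coding sequences of 369 bases are 95.1% identical, with 18 differing bases. Identity of the Saa3 coding sequence was 73.2% with Saa1 and 71.5% with Saa2. How alike the transcripts are matters for the values, because a read that matches more than 1 gene has to be divided between them by an estimate. Of the 560 windows of 50 bases in the Saa1 transcript, 74 (13.2%) occurred unchanged in Saa2 and 9 (1.61%) in Saa3, whereas no window was shared between Saa2 and Saa3. The window of 50 bases follows the study's methods, which describe single-end reads of that length. The labels name an Illumina library kit where the methods name a BGI platform, and the low values described below fall on 2 kinds of steps, so these shares may not hold for every library. The first pair of sequences below shows coding bases 91 to 150, the 60 bases with most differences between Saa1 and Saa2, with the 7 differing bases in capitals. The second pair shows the longest run that Saa1 and Saa3 have in common, coding bases 131 to 188 of Saa1, in capitals throughout, and the same bases of Saa2 with its 6 differences in capitals. All 4 come from the GENCODE vM21 transcripts.
Saa1: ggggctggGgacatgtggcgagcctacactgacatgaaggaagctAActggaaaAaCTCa
Saa2: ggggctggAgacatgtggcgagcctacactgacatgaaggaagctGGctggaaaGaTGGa
Saa1 and Saa3: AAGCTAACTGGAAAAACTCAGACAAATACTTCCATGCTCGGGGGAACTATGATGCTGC
Saa2 at the same bases: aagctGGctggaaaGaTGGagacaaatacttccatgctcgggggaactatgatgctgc
The gene names need care as well, since the RefSeq gene table lists Saa2 among the synonyms of Saa1 and Saa1 among those of Saa2. The symbols are used here as the deposited table gives them.

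The 4 mice numbered 4, 1 in each group, stood apart from the 8 mice numbered 1 to 3. Their column totals were 482194 to 504337 FPKM, against 696286 to 765876. Among 2438 genes that have only 1 transcript, low values lie on steps, which give an estimate of what 1 read was worth and of how many bases were taken off each transcript before the division by length. The bases that remain are called the effective length here. The steps were sharpest with 20 to 70 bases taken off for the mice numbered 4, and with 270 to 320 for the other 8 mice. At 50 bases off, 66.1% to 71.0% of the low values in the mice numbered 4 lay within 0.15 of a whole number of reads, and in the other mice 48.0% to 58.3% did. At 280 bases off, the mice numbered 4 had 47.0% to 52.2% and the other mice 67.3% to 74.5%. The Saa transcripts are short, with 609 bases for Saa1, 606 for Saa2 and 555 for Saa3, so this bears on them. By this estimate the same share of all reads gave a 1.72-fold higher FPKM for Saa1 and Saa2, and a 1.86-fold higher FPKM for Saa3, in the mice numbered 1 to 3. Each group holds 1 mouse numbered 4, so the factor enters every group mean of log values. It widens the spread within a group where the mouse numbered 4 is the lowest, as in Saa1 throughout. For Saa3 without DSS that mouse was above the mean of the others, and the factor brought it closer to that mean. The factor is not exactly equal between groups, since the estimated length differs between libraries. The estimated depth was about 15000000 to 19600000 reads per mouse, and 3 reads on Saa3 were worth 0.297 to 0.814 FPKM, which covers counting error only.

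The colitis mouse receiving BBR that is numbered 4 also differed from its group in inflammation genes. S100a8, a calcium-binding protein of neutrophils, was at 0.31 FPKM in it and at 118 and 148 in the other two. Nos2, the inducible nitric oxide synthase, was at 2.21 FPKM against 11.7 and 148. Socs3, the feedback inhibitor of STAT3, was at 23.9 FPKM in this mouse, close to one of the others at 20.8 and above all 6 mice without DSS, which lay between 1.55 and 4.65. The log2 fold changes of the Saa genes are therefore given with and without this mouse in the comparisons that use it.

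Saa3 was near its detection limit without DSS and high in colitis mice. It was at 0.51, 1.10 and 0.92 FPKM in the normal mice numbered 1, 3 and 4, and at 0.84, 0 and 1.09 FPKM in the normal mice receiving BBR with the same numbers. These 6 values stand for about 0 to 9.90 reads. In the colitis mice numbered 1, 2 and 4 Saa3 was at 433, 2181 and 59.7 FPKM. In the colitis mice receiving BBR numbered 2, 3 and 4 it was at 38.0, 63.6 and 1.13 FPKM. Every colitis mouse was thus far above every mouse without DSS, and the mice within the colitis group spanned a 36.5-fold range. Only the mouse numbered 4 among the colitis mice receiving BBR was at the level of the normal mice. Colitis mice had a mean of 891 ± 1133 FPKM (SD, n = 3). The mean was 34.2 ± 31.4 for colitis mice receiving BBR, 0.843 ± 0.302 for normal mice and 0.643 ± 0.571 for normal mice receiving BBR. As deposited, colitis mice and colitis mice receiving BBR overlapped by 1 mouse on each side, and the 2 groups without DSS overlapped too. Between colitis and normal mice, the comparison that chose it, the log2 fold change of Saa3 was 8.72. The 2 groups did not overlap for Saa3 and overlapped for Saa1 and Saa2, where 7.10% of all tested genes were higher without overlap.

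**Figure D1:**
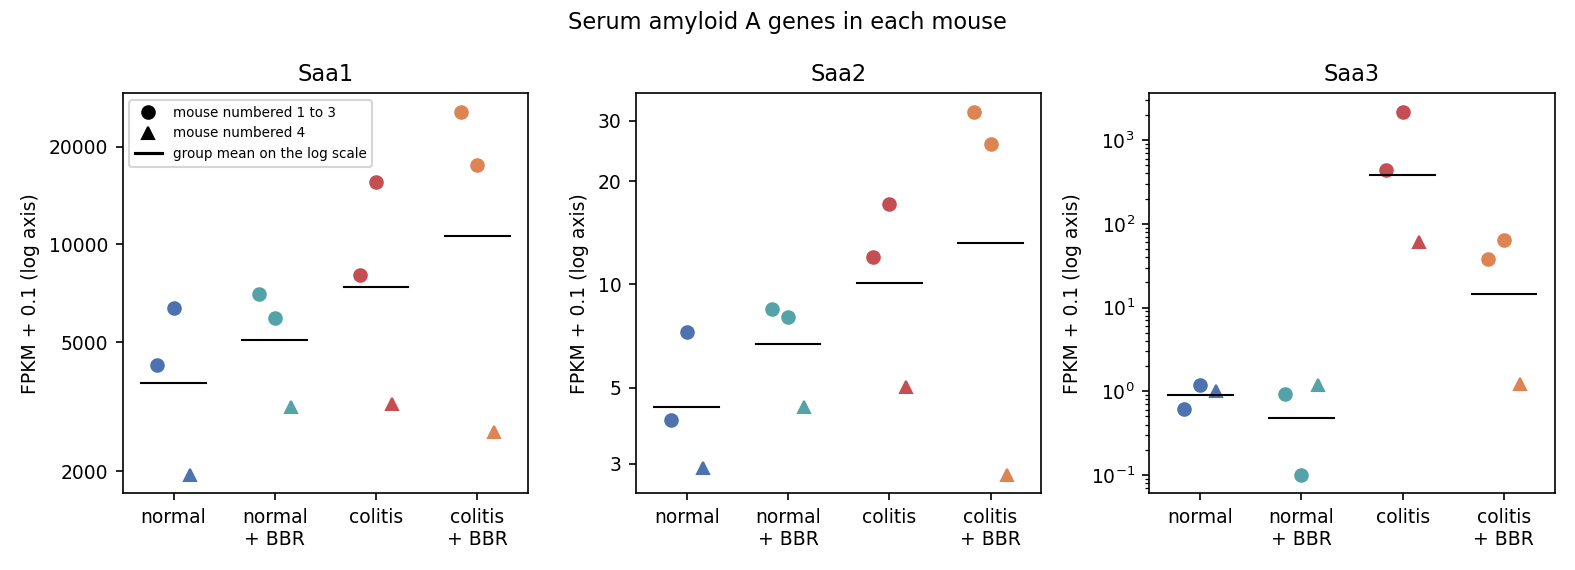
FPKM + 0.1 of Saa1, Saa2 and Saa3 on log axes in each of the 12 mice by group, with triangles for the mice numbered 4 and a line at the group mean of the log values. Saa3 lies at 1.10 FPKM or less in all 6 mice without DSS and at 59.7 to 2181 in colitis mice, whereas the ranges of Saa1 and Saa2 overlap between all groups.

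The effect of DSS was tested in the 6 mice that the choice of the genes had not used, as colitis mice receiving BBR against normal mice receiving BBR. Saa3 was higher in all 3 colitis mice than in any of the 3 others, with a log2 fold change of 4.90 ± 1.54 (SE, 95% interval 1.54 to 8.26). The size depends on the 0.1 FPKM added before the logarithm, since Saa3 was near or at 0 in normal mice receiving BBR: it was 3.48 with 1 added and 6.06 with 0.01, and passed the adjusted limit with neither. The log2 fold change of 4.90 did not pass limma's test adjusted over all genes (adjusted p = 0.215, unadjusted p = 0.00808). With these 6 mice fitted alone its standard error was 1.51 (limma adjusted p = 0.364, unadjusted p = 0.0112). The exact two-sided permutation p, from these 6 mice, was 0.1, the smallest that 3 mice against 3 allow. Of the 15315 genes tested 6 passed the adjusted limit (0.0392%) and 3010 the unadjusted limit of 0.05 (19.7%), and 346 were higher without overlap (2.26%). Among the 3 Saa genes the corresponding counts were 0, 1 and 1, each time Saa3. The separation of the groups in Saa3 was narrow at its lower edge, since it rests on 1.13 FPKM in the colitis mouse numbered 4 against 1.09 in the normal mouse numbered 4. With the Saa genes scaled to the whole transcript length, as described below, these became 0.990 and 1.05 FPKM. The groups then overlapped, so the separation holds for the deposited values only.

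Without the colitis mouse receiving BBR numbered 4, the log2 fold change of Saa3 was 6.68 ± 1.31 and passed (limma adjusted p = 0.0181), in a fit where 2256 genes (14.7%) passed. Saa2 passed as well, with 2.10 ± 0.52 (limma adjusted p = 0.0314), and Saa1 did not, with 2.07 ± 0.95 (limma adjusted p = 0.132). With the 8 mice numbered 1 to 3 alone, the log2 fold changes were 7.33 for Saa3, 1.80 for Saa2 and 1.72 for Saa1 (limma adjusted p = 0.0277, 0.0300 and 0.0575), in a fit where 15.8% of all genes passed. Between the 2 mice numbered 4 the ratio of colitis with BBR to normal with BBR was 1.04 for Saa3, 0.623 for Saa2 and 0.840 for Saa1. Saa3 and Saa2 thus passed the limit only in fits without the colitis mouse receiving BBR numbered 4. That mouse had the lowest value of its group in all 3 genes, so these passes are no separate evidence of a rise. The mice numbered 1 to 3 were 2 in each of the compared groups. The pair numbered 4 with BBR showed no rise of this size. In the pair numbered 4 without BBR, as a description, the ratio of colitis to normal was 64.9 for Saa3, 1.75 for Saa2 and 1.66 for Saa1. No difference between these pairs was tested. The median of all genes in this comparison was −0.40, and −0.03 after quantile normalization, under which Saa3 was at 5.08, Saa2 at 1.28 and Saa1 at 0.24.

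With BBR against without it in the mice given DSS, the log2 fold change of Saa3 was −4.74 ± 1.54 (SE, 95% interval −8.10 to −1.37). This comparison shares the colitis mice with the one that chose Saa3, so high values in those mice enter both. As deposited the groups overlapped, since 63.6 FPKM in the mouse numbered 3 of the group with BBR was above 59.7 FPKM in the colitis mouse numbered 4, and 8 of 9 pairs of mice had the lower value in the group with BBR. The difference did not pass the adjusted limit (limma adjusted p = 0.568, unadjusted p = 0.00984, exact permutation p = 0.2). Here 0 genes (0%) passed limma's adjusted limit, 978 (6.39%) had an unadjusted p under 0.05, and 7.08% did not overlap in either direction, a count that holds none of the 3 Saa genes. As a description, the mean with BBR was 0.0389 of that without BBR over the mice numbered 1 to 3, and the ratio between the mice numbered 4, 1 against 1, was 0.0189. Without the mouse numbered 4 in the group with BBR, the log2 fold change was −2.96 (limma adjusted p = 0.450). With the Saa genes scaled to the whole transcript length, the values 63.6 and 59.7 became 31.6 and 55.5 FPKM, and the groups did not overlap. The log2 fold change over all mice was then −4.77 ± 1.33 (limma adjusted p = 0.492). Other genes were not scaled, so no share of all genes stands beside this.

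Saa1 was one of the most abundant transcripts in the rectum of every mouse. It ranked between the second and the seventeenth of all genes in each library. The values were 4249, 6380 and 1946 FPKM in the normal mice numbered 1, 3 and 4, and 7016, 5926 and 3143 FPKM in the normal mice receiving BBR numbered likewise. In the colitis mice numbered 1, 2 and 4 they were 8042, 15572 and 3226 FPKM, and in the colitis mice receiving BBR numbered 2, 3 and 4 they were 25674, 17585 and 2639 FPKM. The lowest value of every group belonged to the mouse numbered 4. The means in this order of the groups went from 4192 ± 2217 over 5362 ± 1997 and 8947 ± 6223 to 15299 ± 11687 FPKM (SD, n = 3), and each group overlapped with its neighbour. Saa1 made up 0.628% ± 0.248 of the column total in normal mice and 2.11% ± 1.46 in colitis mice receiving BBR.

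Saa2 was listed far below Saa1 in every mouse. It was at 3.92, 7.14 and 2.82 FPKM in normal mice and at 8.39, 7.92 and 4.30 in normal mice receiving BBR, in the same order of mice. The colitis mice had 11.9, 17.1 and 4.93 FPKM of it, and those receiving BBR 31.8, 25.7 and 2.68. Saa2 was 0.0923% to 0.153% of Saa1, a 1.66-fold range, while Saa1 itself spanned a 13.2-fold range over the 12 mice. The mean share was 0.116% in normal mice and 0.137% in colitis mice, and with BBR it was 0.130% and 0.124%. A near constant share was thus kept while the level moved, in genes whose transcripts have 74 windows of 50 bases in common. Whether reads of Saa1 contributed to the listed level of Saa2 was not tested. On log values over the 12 mice Pearson's r was 0.98 between Saa1 and Saa2 and 0.57 between Saa1 and Saa3, given as a description, since the mice share groups and kinds of library. Saa3 did not keep a constant share: it was 0.0120% to 0.0473% of Saa1 in normal mice and 1.85% to 14.0% in colitis mice. In colitis mice receiving BBR Saa3 was 0.0428% to 0.361% of Saa1, below every colitis mouse. These shares are a description, since they use the colitis values that chose Saa3. The Saa3 level itself overlapped between these groups as deposited, and such shares were not computed for other genes.

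**Figure D2:**
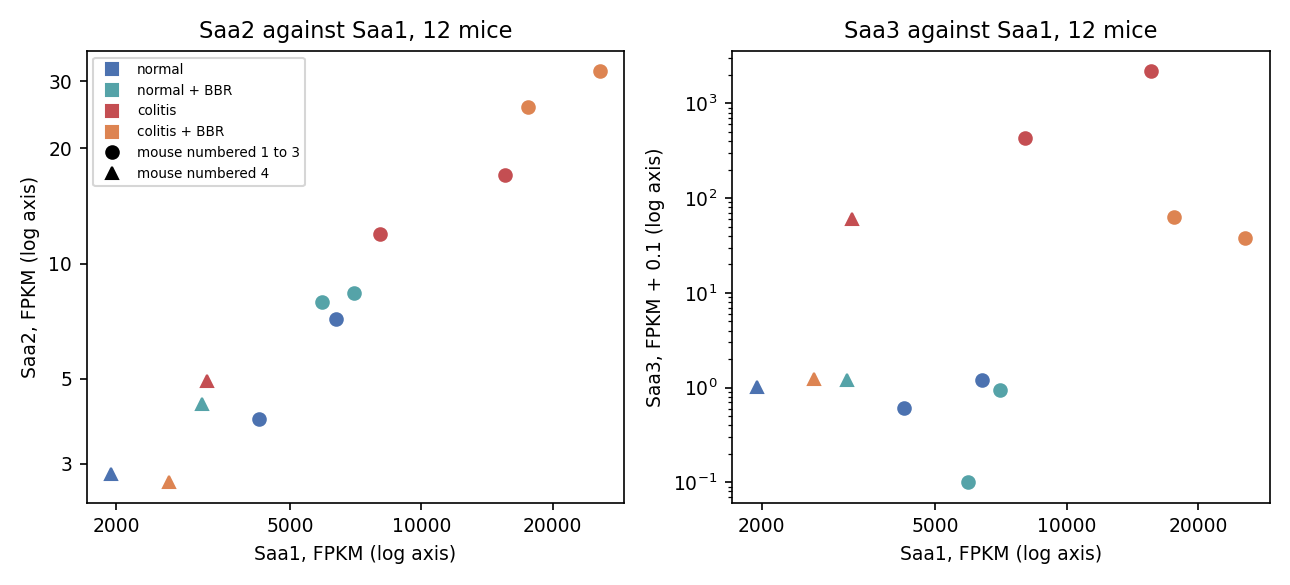
Saa2 (left, FPKM) and Saa3 (right, FPKM + 0.1) against Saa1 (FPKM) in the 12 mice on log axes, coloured by group, with triangles for the mice numbered 4. Saa2 follows Saa1 along 1 line with a share of 0.0923% to 0.153%, while Saa3 separates the 3 colitis mice from the others at like levels of Saa1. The colitis values of Saa3 are those that chose it.

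Scaling for the effective length of the libraries brought the Saa1 values of the mice numbered 4 closer to their groups. As deposited, the normal mouse receiving BBR numbered 4 had 0.486 of the mean of the other two in its group. Scaled to the whole transcript length, the 3 values of this group were 3341, 3211 and 3045 FPKM, and the share was 0.929. In normal mice the share of the mouse numbered 4 went from 0.366 to 0.603, and in colitis mice from 0.273 to 0.463. In colitis mice receiving BBR it went from 0.122 to 0.200, with 13912, 9529 and 2340 FPKM after scaling. The lower Saa1 level of the mice numbered 4 was thus reduced by the scaling to nearly level in normal mice receiving BBR and remained, smaller, in the other 3 groups. The scaling raises the mice numbered 4 against the others in any transcript of this length. The smaller spread of Saa1 therefore does not show where that spread came from. For Saa3 without DSS the mouse numbered 4 moved away from the mean of the others in its group. Its ratio to that mean went from 1.14 to 2.03 in normal mice and from 2.60 to 5.89 in normal mice receiving BBR. This scaling was chosen after seeing the data.

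**Figure D3:**
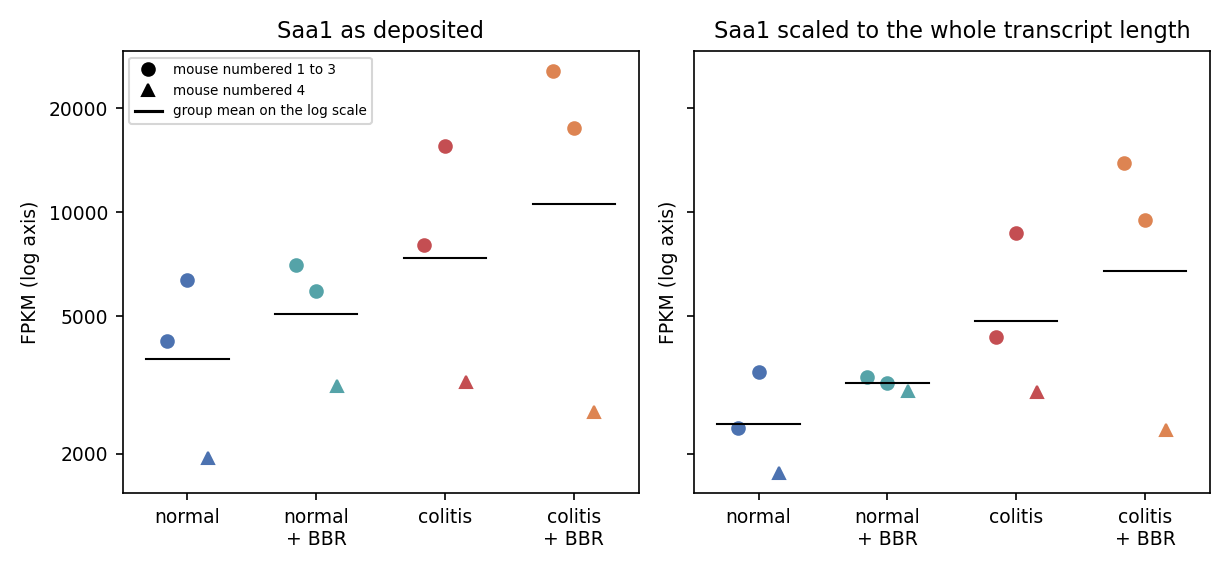
Saa1 in each of the 12 mice as deposited (left) and scaled from the estimated effective length to the whole transcript length (right), in FPKM on the same log axis, with lines at the group means of the log values. After scaling, the 3 normal mice receiving BBR lie between 3045 and 3341 FPKM, and the mouse numbered 4 of the colitis mice receiving BBR stays lowest in its group at 2340.

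Saa1 and Saa2 passed the adjusted limit in none of the comparisons tested over all 12 mice. Between colitis mice receiving BBR and normal mice receiving BBR, the log2 fold change was 1.06 ± 0.98 for Saa1 and 0.98 ± 0.80 for Saa2 (limma adjusted p = 0.499 and 0.449, exact permutation p = 0.4 for both), with 95% intervals of −1.08 to 3.21 and −0.77 to 2.72. With the values scaled to the whole transcript length these became 1.08 ± 0.73 and 0.99 ± 0.59, and Saa3 4.54 ± 1.33 (limma adjusted p = 0.373, 0.331 and 0.215). For colitis mice with BBR against those without, the log2 fold change was 0.52 ± 0.98 for Saa1 and 0.38 ± 0.80 for Saa2 (limma adjusted p = 1.00 and 1.00, exact permutation p = 0.7 for both). Without the mouse numbered 4 of the group with BBR these were 1.52 ± 0.95 and 1.5 ± 0.52 (limma adjusted p = 0.576 and 0.392). After quantile normalization Saa1 was at −0.31 here. The contrast of these 2 genes with Saa3 was not tested. Between colitis and normal mice, as a description, the log2 fold change was 0.98 for Saa1 and 1.2 for Saa2, and 7 of 9 and 8 of 9 pairs of mice had the higher value in colitis.

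None of the 3 genes passed a limit in the comparison of BBR without DSS. Between normal mice receiving BBR and normal mice the log2 fold changes were 0.44 ± 0.98 for Saa1, 0.61 ± 0.80 for Saa2 and −0.91 ± 1.54 for Saa3, with a limma adjusted p of 1 each and an exact permutation p of 0.6, 0.2 and 0.6. In this comparison 0 genes (0%) passed limma's adjusted limit and 208 (1.36%) the unadjusted one, and 9.62% did not overlap in either direction. All 3 Saa genes overlapped. The intervals were wide, −1.71 to 2.58 for Saa1 and −4.27 to 2.45 for Saa3, so changes of several fold were not detectable by this fit. Its spread is shared with the groups given DSS. With the compared groups fitted alone the standard errors were 0.79 for Saa1, 0.38 for Saa2 and 0.88 for Saa3, and none passed either limit.

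The DSS effect with BBR minus that without BBR was −3.82 ± 2.18 for Saa3 on the log2 scale, 0.08 ± 1.39 for Saa1 and −0.23 ± 1.13 for Saa2. Without the mouse numbered 4 of the group with both BBR and DSS, it was −2.05 ± 1.75 for Saa3 (limma adjusted p = 0.978), 1.09 ± 1.27 for Saa1 and 0.90 ± 0.70 for Saa2, where Saa2 had the other sign than over all 12 mice. Its sign also turned without either of 2 other mice, the normal mouse numbered 4 (0.069) and the colitis mouse numbered 2 (0.15), and that of Saa1 turned with 6 of the 12 mice when each was omitted alone. None passed with all 12 mice (limma adjusted p = 1.00 each, unadjusted p = 0.105, 0.953 and 0.845), nor did any other gene, with 0 of 15315 (0%) past limma's adjusted limit and 371 (2.42%) past the unadjusted one. This test also uses the colitis mice that chose Saa3.

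**Figure D4:**
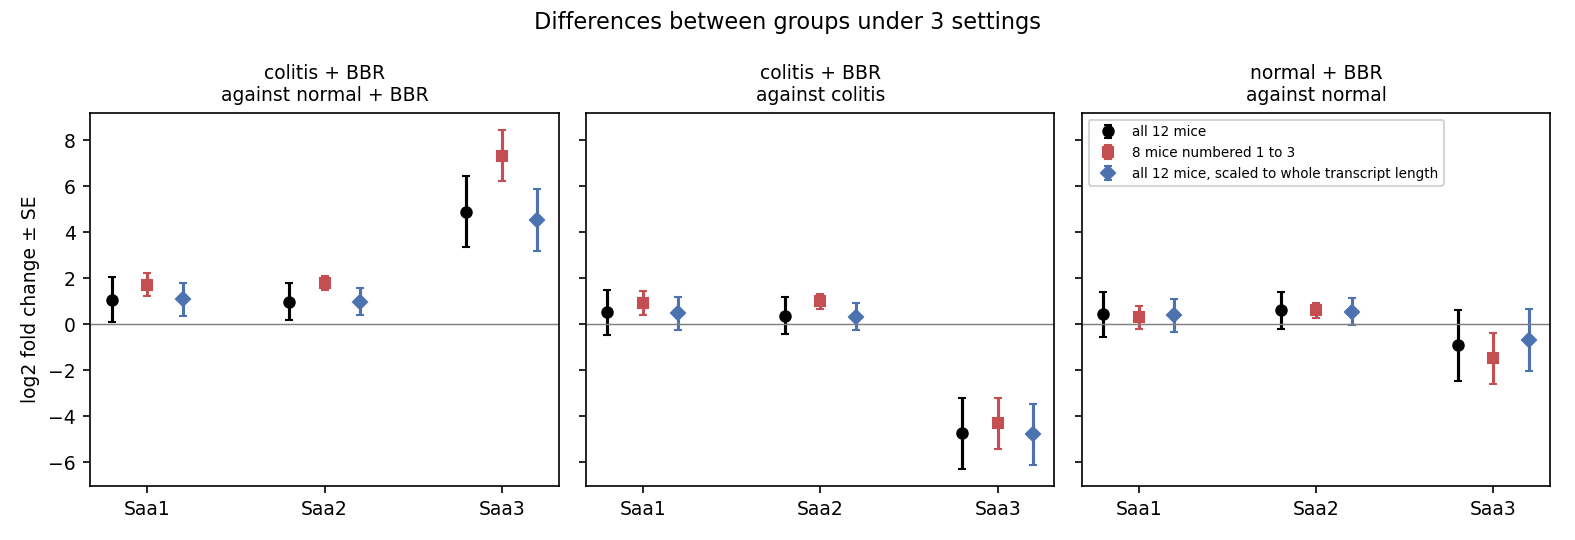
Log2 fold changes with standard errors of Saa1, Saa2 and Saa3 in 3 comparisons, from all 12 mice, from the 8 mice numbered 1 to 3, and from all 12 mice scaled to the whole transcript length. Saa3 is at 4.90, 7.33 and 4.54 between the groups with BBR, and the standard error of Saa2 there is smallest in the mice numbered 1 to 3.

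Genes of the signalling that induces serum amyloid A, its feedback inhibitor Socs3 among them, were read beside the members from a list of 24 genes, all of which were tested. In colitis mice receiving BBR against normal mice receiving BBR, 15 were higher and 9 lower, and the median was 0.27 where all genes had −0.40 and 80.1% of them were lower. Of these only Socs3, which is not an inducer, passed the adjusted limit, with a log2 fold change of 3.96 ± 0.40 (limma adjusted p = 0.00786). This call was lost without the normal mouse receiving BBR numbered 3 (3.81, limma adjusted p = 0.0841) and when the 2 compared groups were fitted alone (3.96, limma adjusted p = 0.189). Tnf, the cytokine tumour necrosis factor, did not pass with 4.41 ± 0.74 (limma adjusted p = 0.0719), nor did Il1b at 2.41 and Il6 at 1.97, both cytokines of the acute phase response. Il6 was at 0 to 0.08 FPKM in the 6 mice without DSS. Colitis mice had 4.01, 5.48 and 1.49 FPKM, and those receiving BBR 0.15, 1.51 and 0.05. For Il1b the colitis mice had 24.3, 32.5 and 11.6 FPKM, and those receiving BBR had 3.58, 11.2 and 0.29, each below every colitis mouse without BBR. Both cytokines were thus lowest, within the groups with DSS, in the mouse numbered 4 that received BBR, as Saa3 was. Against colitis mice, 3 of the 24 were higher and 21 lower with BBR (median −0.42, all genes −0.09, of which 62.0% were lower), and none passed. Without the colitis mouse receiving BBR numbered 4, 6 of the 24 passed as higher and 1 as lower between the groups with BBR, where 14.7% of all genes passed. Tnf was then at 5.36, Il1b at 3.76 and Il6 at 2.67 (limma adjusted p = 0.00181, 0.0172 and 0.0398). Against colitis mice 5 were then higher and 19 lower, with a median of −0.41 where all genes had −0.25.

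Of 26 listed genes for other acute phase proteins, 18 were tested. With BBR, 15 of the 18 were higher in colitis than in normal mice, with a median of 1.23, and none passed the adjusted limit. All genes had a median of −0.40 there, and 19.9% of them were higher. The largest differences were in Hp, the haemoglobin-binding protein haptoglobin, at 3.97 ± 1.44, in Lrg1, a leucine-rich plasma glycoprotein, at 2.71 ± 0.91, and in Lbp, the lipopolysaccharide-binding protein, at 2.22 ± 0.49. Lbp was at 5.22, 26.9 and 10.6 FPKM in the colitis mice receiving BBR and at 1.84 to 2.74 in the normal mice receiving BBR. The groups did not overlap, where 2.26% of all tested genes were higher without overlap. In colitis mice receiving BBR against colitis mice, 15 of the 18 were lower, with a median of −1.0, and none passed. All genes had −0.09 there, and 62.0% of them were lower. Without the mouse numbered 4 of the group with BBR, 10 of the 18 were lower than in colitis mice, with a median of −0.34 where all genes had −0.25. Between the groups with BBR 17 were then higher, of which 4 passed, where 14.7% of all genes did.

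Among 12 genes listed for the epithelial response to microbes, all tested, 11 were higher in colitis with BBR than in normal mice with BBR (median 3.59), and 11 were lower in colitis with BBR than in colitis (median −1.60). All genes had medians of −0.40 and −0.09 in these comparisons. None of the 12 passed the adjusted limit in either comparison. Without the mouse numbered 4 of the group with both, the median against colitis mice was −0.34, with 9 lower, where all genes had −0.25. Between the groups with BBR the median of the list was then 4.50, with 6 of the 12 past the limit, where 14.7% of all genes were. The 3 largest differences between the groups with BBR over all mice were in S100a8 at 7.59, S100a9, its partner subunit, at 5.33, and Nos2 at 4.28. S100a8 and S100a9 are abundant in neutrophils, whose markers are given below, and the cells that carried them here cannot be told apart. Of the receptors and binding partners of serum amyloid A, 11 of 12 were tested, with 6 higher and 5 lower between the groups with BBR (median 0.03) and none past the limit. The largest of these differences were −1.61 for Cd36, a scavenger receptor, and 1.33 and 1.25 for the formyl peptide receptors Fpr2 and Fpr1. When the mouse numbered 4 was omitted, 2 of them passed as higher, Cd14 at 1.53 and Fpr1 at 1.96 (limma adjusted p = 0.0319 and 0.0383). Cd36 passed as lower at −2.14 (limma adjusted p = 0.0412), where 14.7% of all genes passed. Fpr1 was then at 0.44 and 0.25 FPKM against 0, 0 and 0.04, so its fold change depends on the 0.1 FPKM added. Fpr2, which binds serum amyloid A, was at 2.46, 6.14 and 0.98 FPKM in colitis mice, above 0.78, 0.58 and 0.26 in those receiving BBR. Its log2 fold change between these 2 groups was −2.11 (limma adjusted p = 0.510). Fpr1 was at −2.00 there, and Cd36 at 0.27. With the mouse numbered 4 of the group with BBR omitted, Fpr2 was at −1.74, Fpr1 at −1.29 and Cd36, with the other sign, at −0.27, and none passed.

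**Figure D5:**
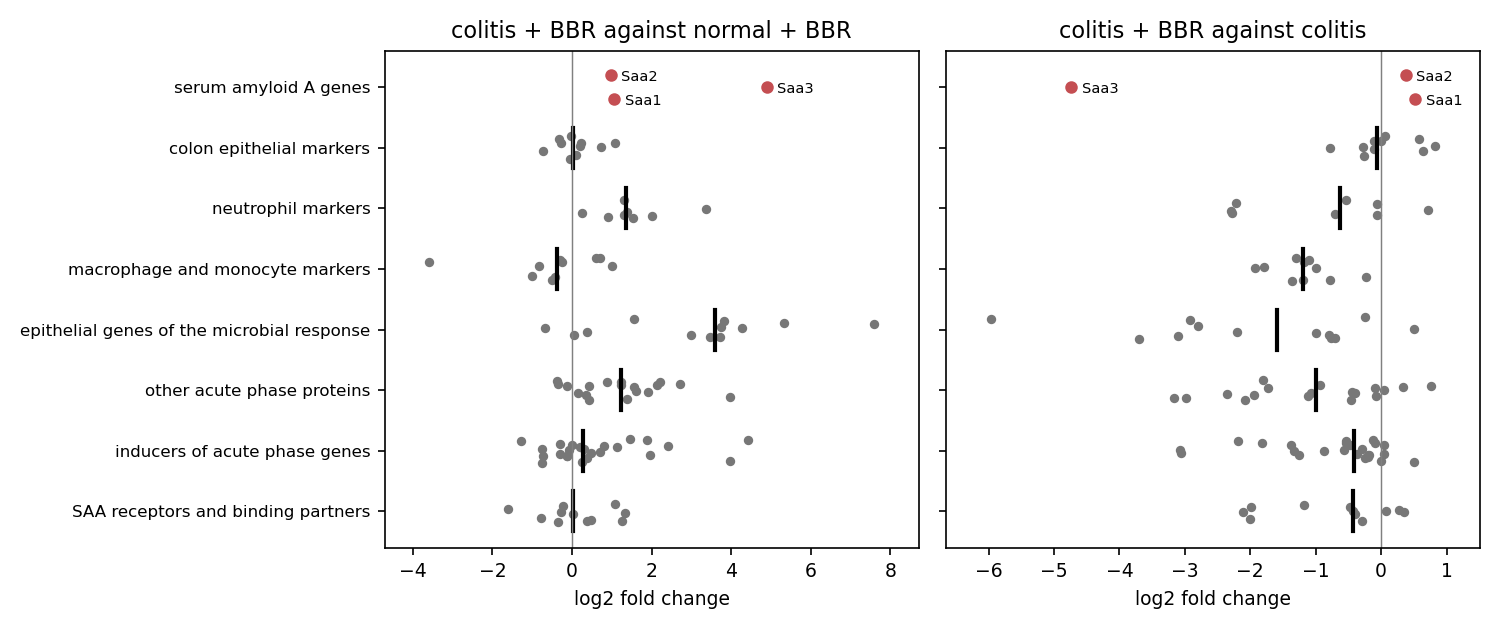
Log2 fold changes of the genes in 7 lists (grey points, with the median as a bar) and of Saa1, Saa2 and Saa3 (red), for colitis with BBR against normal with BBR (left) and colitis with BBR against colitis (right). Saa3 lies at 4.90 and −4.74, Saa1 at 1.06 and 0.52, and the medians of the epithelial genes of the microbial response at 3.59 and −1.60.

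Markers of the cell types that can make or accompany Saa3 were read in the same mice. The summed level of the 10 macrophage and monocyte markers was 251 to 890 FPKM in colitis mice and 137 to 236 in those receiving BBR, with all 10 lower in the latter (median log2 fold change −1.19, where 62.0% of all genes were lower), or 9 of 10 without the mouse numbered 4 of that group (median −1.05). It was 189 to 256 in normal mice and 188 to 290 in normal mice receiving BBR. Of the 10 neutrophil markers 8 were tested, and without Ly6g, which normal mice also had, the sum of the other 9 was 0.40 to 3.23 FPKM in normal mice and 0.59 to 3.12 in normal mice receiving BBR. That sum was 5.34 to 30.6 FPKM in colitis mice and 2.79 to 15.6 in those receiving BBR. Adipocyte markers summed to 145 and 95.7 FPKM in the colitis mice receiving BBR numbered 2 and 3 and to 239 in the normal mouse numbered 4, and to at most 38.8 in the other 9 mice. Saa3 was at 0.92 FPKM in that normal mouse. The 8 hepatocyte markers summed to 11.5 to 77.4 FPKM, most of it Ttr, and Alb, the albumin gene, was at 0.03 to 2.35 FPKM in mice whose Saa1 was at 1946 FPKM or more. The 10 colon epithelial markers were present in all groups, with sums of 9802 to 17801 FPKM and a median log2 fold change of 0.03 between the groups with BBR. The 8 fibroblast markers were all lower in colitis mice receiving BBR than in normal mice receiving BBR, with a median of −1.22, in a comparison where 80.1% of all genes were lower. None of these markers passed the adjusted limit over all 12 mice. Without the colitis mouse receiving BBR numbered 4, markers that passed between the groups with BBR were 1 of 10 of macrophages (lower), 1 of 8 of neutrophils (higher), 3 of 7 of adipocytes (higher) and 3 of 8 of fibroblasts (lower). In that fit 14.7% of all genes passed the limit. The macrophage and neutrophil markers lay near that share and the adipocyte and fibroblast markers above it, in short lists whose shares were not tested. The part of these cells in the Saa values was not tested.

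The promoters are shown for the members because the listed values of Saa1 and Saa2 varied together. Windows of 300 bases, 250 before and 50 after each start site, were taken from RefSeq on build GRCm38.p6, which is not the build mm9 that the submitters' processing notes name. The windows of Saa1 and Saa2 had 287 identical bases of 300, those of Saa1 and Saa3 165. Capitals mark matches, on either strand, to the C/EBP motif TTGCNNAA and to the NF-kappaB consensus.
Saa1 promoter, chr7:46742931-46743230, minus strand: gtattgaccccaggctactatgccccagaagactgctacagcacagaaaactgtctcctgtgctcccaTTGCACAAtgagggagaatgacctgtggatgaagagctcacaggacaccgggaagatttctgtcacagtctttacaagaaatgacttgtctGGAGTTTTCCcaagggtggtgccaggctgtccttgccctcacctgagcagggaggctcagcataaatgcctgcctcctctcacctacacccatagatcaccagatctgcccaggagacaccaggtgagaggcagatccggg
Saa2 promoter, chr7:46751583-46751882, plus strand: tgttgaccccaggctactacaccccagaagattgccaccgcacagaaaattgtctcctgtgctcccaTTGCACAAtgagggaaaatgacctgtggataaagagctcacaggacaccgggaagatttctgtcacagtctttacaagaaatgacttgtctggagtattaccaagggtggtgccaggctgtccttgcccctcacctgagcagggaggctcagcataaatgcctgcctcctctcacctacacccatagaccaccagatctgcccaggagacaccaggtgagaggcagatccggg
Saa3 promoter, chr7:46715627-46715926, minus strand: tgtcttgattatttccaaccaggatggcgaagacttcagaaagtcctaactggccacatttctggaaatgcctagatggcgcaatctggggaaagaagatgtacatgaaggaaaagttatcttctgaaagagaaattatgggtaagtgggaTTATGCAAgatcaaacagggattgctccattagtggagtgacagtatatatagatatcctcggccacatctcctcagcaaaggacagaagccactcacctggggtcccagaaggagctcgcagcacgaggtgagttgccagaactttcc
The C/EBP letters occurred once in each of the 3, at −182 from the start site in Saa1, −183 in Saa2 and −99 in Saa3, and in 10.8% of 32851 mouse promoters. The NF-kappaB consensus was matched in Saa1, at −91, and not in these windows of Saa2 and Saa3, and in 11.2% of all promoters. The STAT motif TTCNNNGAA was in none of the 3 and in 8.30% of all promoters. The motif matches did not overlap each other, and a match describes letters only.

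Saa4, between Saa3 and Saa1 in the cluster, was low throughout. Normal mice had 0.07, 0.14 and 0.23 FPKM, and those receiving BBR 0.04, 0 and 0.11. Colitis mice had 0.89, 1.10 and 0.52 FPKM, and those receiving BBR 2.14, 0.61 and 0.40. Every mouse with DSS was above every mouse without it. Of all tested genes 7.10% were higher without overlap between colitis and normal mice, and 2.26% between the groups with BBR. The values in normal mice receiving BBR stand for about 1.11, 0 and 3.87 reads, so fold changes against them depend on the 0.1 FPKM added. Between the groups with BBR the log2 fold change was 2.69 (limma adjusted p = 0.150). When the mouse numbered 4 of the group with both was omitted, it was 3.14 ± 0.57 and passed (limma adjusted p = 0.0159), in the fit where 14.7% of all genes did. The 3 measured genes on either side of the cluster were Sergef, Tph1 and Saal1, and Hps5, Gtf2h1 and Ldha. Their log2 fold changes between the groups with BBR were −0.49 to 0.44 and none passed the limit.

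The genes whose log values were most like those of each member over the 12 mice were not the same for Saa1 and Saa3. After Saa2, those nearest to Saa1 were Tmem45b (r = 0.97), Ly96 (0.96), Lrrc66 (0.96) and Ceacam1 (0.96), among 11942 other genes with a mean of at least 1 FPKM. Ly96 is the partner protein of Toll-like receptor 4 and Ceacam1 an adhesion molecule of epithelium. Those nearest to Saa2, after Saa1, were Tmem45b (0.98), Cideb (0.95), Adtrp (0.95) and Lypd8 (0.94), the last a secreted epithelial protein that binds flagellated bacteria. Those nearest to Saa3 were Dgat2 (0.98), Asah1 (0.97), Prss22 (0.96), Prdm1 (0.96) and Wfdc12 (0.96), where Dgat2 makes triglyceride and Prdm1 is a repressor of transcription. The mean of Dgat2 was 20.4 FPKM in normal and 78.7 in colitis mice, and with BBR it was 19.1 and 47.4. These correlations are a description, in mice that share groups and kinds of library.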

How the data were processed

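Rectal RNA of 12 mice was grouped by the sample labels. By the authors' methods, reads were cleaned in SOAPnuke, mapped by Bowtie2 2.2.5 and turned into expression estimates by RSEM 1.2.12, and the submitters' processing notes name mm9. The methods give single-end reads of 50 bases. The unit of the deposited table was inferred from the values as FPKM, and TPM was not excluded by any label. The labels and the methods name different makers of the library and sequencing protocol.

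Genes averaging 0.1 FPKM or more (15315) were fitted as log2(FPKM + 0.1) by limma 3.58.1 (R 4.3.3), using 1 mean for each group, an empirical Bayes spread with a trend, and Benjamini-Hochberg adjustment over all of them at 0.05. Fold changes on this scale understate the change of low genes. Single genes were also tested by an exact two-sided permutation of 3 mice against 3. Python 3.11.15 (NumPy 2.4.6, pandas 2.3.3, Biopython 1.88, matplotlib 3.10.9) served for the steps of low values, sequences, correlations and figures. The labels do not say that mice were treated or processed separately, so p-values measure the spread between these samples.

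The members and gene lists were chosen with earlier results of these data known. The genes named are the members, Saa4, list genes past the adjusted limit or otherwise the 3 largest differences of a list in the comparison of the groups with BBR, the 5 genes most like each member, and 3 measured genes on either side of the cluster. Tnf, Il1b and Il6, named beside Socs3, Cd14, named in a fit without 1 mouse, and Alb, Ttr and Ly6g, named for marker sums, fall outside this rule. They were chosen after their values were seen. The other genes of the marker lists are given as sums and counts. The replicate numbers 1, 3 and 4 are shared by normal mice with and without BBR, where the deviations of same-numbered mice from their group means had r = 0.29, 0.11 and 0.66 across genes. Each is over 0.1, the limit set for a pairing, but mice numbered 1 and 3 crossed gave 0.37 and 0.46, so only number 4 stood out. A replicate block was an alternative. A scaling to a common column total and the scaling of the 3 genes to the whole transcript length, and the lists and Saa4 without 1 mouse, and Socs3 under each setting, were added after seeing the data. The other alternatives were other pseudocounts (1 and 0.01), filters, normalizations and blocks, and leaving out each mouse. The fits were tested on simulated data.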

Additional observations from a re-analysis of the deposited data

How the results depend on the processing

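The 15 values of the 3 genes in 5 comparisons were recomputed 315 times in all. Of the 255 recomputations in the 4 tested comparisons, 230 kept the direction and the side of the limit, 21 changed sign and 4 newly passed. The other 60, between colitis and normal mice, were not tested, and each kept its direction and moved by less than the spread between replicates. With 1 or 0.01 FPKM added, Saa3 was 3.48 and 6.06 between the groups with BBR (limma adjusted p = 0.222 and 0.221). With the mice numbered 1 to 3 alone, Saa2 (1.80) and Saa3 (7.33) passed between the groups with BBR. Leaving out each mouse in turn gave 0.34 to 2.10 for Saa2 and 3.77 to 6.68 for Saa3 there, with both passing without the colitis mouse receiving BBR numbered 4.

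The changes of sign were in small differences. Quantile normalization gave −0.31 for Saa1 with BBR against without BBR in colitis, and −0.67 for its interaction. In the interaction, Saa1 was −0.035 with the replicate block, and Saa2 was 0.38 with the mice numbered 1 to 3 alone and 0.084 when its values were summed with those of Saa1. Leaving out each mouse in turn gave −0.12 to 1.52 for Saa1 and −0.26 to 1.5 for Saa2 in colitis with BBR against colitis. It gave −0.037 to 0.82 for Saa1 and −1.57 to 0.22 for Saa3 in normal mice with BBR against normal mice, and −0.55 to 1.09 for Saa1 and −0.86 to 0.90 for Saa2 in the interaction, where Saa3 was −5.16 to −2.05 and did not change sign. The cause of these changes was not tested.

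With the replicate block, Saa3 was 4.14 (limma adjusted p = 0.176) between the groups with BBR, and with a block for the mice numbered 4 it was 4.90 (0.0777). Neither block changed a call of the 3 genes. Socs3 lost its call without the normal mouse receiving BBR numbered 3 and with the compared groups alone. The count of all genes past the adjusted limit in that comparison was 6, against 268 with the block for the mice numbered 4, 2380 with the mice numbered 1 to 3 alone, 12 without the trend, 3 after median centring, 0 with the compared groups alone, and 0 to 2256 when each mouse was left out. In colitis with BBR against colitis it was 0, and at most 59, without the mouse numbered 3 of the group with BBR. Depth limits Saa3 in mice without DSS, where its values stand for at most 9.90 reads.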
